A study of Homo sapiens with 9 samples.

Results

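The genes described here are NFE2L2, which encodes the transcription factor NRF2, its inhibitor KEAP1, and 7 genes that NRF2 is known to activate: NQO1, HMOX1, GCLC, GCLM, TXNRD1, SRXN1 and SLC7A11. They were chosen by name, as the probes whose gene name on the array is one of these symbols, and make up 9 of the 31033 gene names on the array. All 9 were found, with 14 probes between them. The question was whether aldo-keto reductase genes, themselves NRF2 targets, rose in Lamin A/C-depleted cells together with other targets of NRF2.

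RNA of DLD1 cells, a human colorectal cancer line, was measured on 9 single-color arrays in 3 groups of 3 cultures. Control cells received no siRNA. The other cultures were depleted of the A-type lamins (Lamin A/C Kd) or of Lamin B2 (Lamin B2 Kd), proteins of the nuclear lamina, by siRNA at 100 nM over 48 h. Cells given a control siRNA were not among these arrays, so effects of transfection and of lamin loss cannot be told apart in either comparison with controls, and each lamin was targeted by 1 siRNA. RNA was taken from whole cultures, where fewer cells of a type and less RNA per cell cannot be told apart.

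In unstressed cells KEAP1 holds NRF2 in the cytoplasm and feeds it to a ubiquitin ligase for degradation. Electrophiles and oxidants modify KEAP1, so that NRF2 escapes, enters the nucleus and, with a small MAF protein, binds antioxidant response elements near genes for glutathione synthesis, quinone reduction, thioredoxin recycling and NADPH supply. NRF2 is regulated largely at the level of the protein, and transcript levels of NFE2L2 and KEAP1 do not measure its activity.

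Values are log2 signals minus the median of the array, so 0 is the signal of the middle spot of that array. Levels of different probes were not set against each other. A gene is said to have risen or fallen where its brightest probe had a Benjamini-Hochberg adjusted p under 0.05 in limma's moderated test over all probes. The spots well above background made up 65.6 to 74.1% of each array. The knockdowns could be seen in the targeted genes. LMNA fell by 3.83 in Lamin A/C Kd (SE 0.22, adjusted p = 0.000225) and LMNB2 fell by 2.32 in Lamin B2 Kd (SE 0.14, adjusted p = 0.000523). Of the arrays, 8 were on 1 slide and replicate 3 of Lamin B2 Kd was alone on another, so the counts for Lamin B2 Kd and the calls of single genes in it were repeated without that array. Of 9 colon epithelium markers, 8 were above background on all control arrays, 8 on all Lamin A/C Kd arrays and 9 on all Lamin B2 Kd arrays. Of 9 fibroblast, endothelial and blood markers, 4, 5 and 4 were. The summed linear signal of the latter, relative to the array median, was 6.01 to 6.92 in controls, 7.29 to 8.64 in Lamin A/C Kd and 5.72 to 7.79 in Lamin B2 Kd. PDGFRB, a receptor of fibroblasts and pericytes, read -2.02, -1.56 and -1.04 in controls, -0.29, 0.01 and 0.22 in Lamin A/C Kd and -1.66, -1.83 and -2.36 in Lamin B2 Kd. Its probe was well above background on 2 control arrays, 3 Lamin A/C Kd arrays and 2 Lamin B2 Kd arrays, so that it was tested through Lamin A/C Kd, where it was higher than in control (adjusted p = 0.0109), and was not tested in Lamin B2 Kd. Among the colon epithelium markers VIL1, villin, fell by 1.06 upon Lamin B2 depletion (adjusted p = 0.0340). COL1A1, COL1A2, COL3A1 and PTPRC were above background on 2, 2, 1 and 2 of the 9 arrays, and PDGFRB on 7. The other markers of that list, PECAM1, VWF, CD3E and CD14, were above background on all 9. Their mean log2 values over the arrays were -0.93, 0.34, 0.38 and 1.40. The part of other cell types in the results below was not tested.

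NRF2 recognizes a short element whose core is TGACNNNGC. This core was searched on both strands of the 250 bases before the RefSeq start (GRCh38.p14), where 10.91% of 35116 promoters hold it. Of the 7 members with an entry, 2 held a match, and among 39 other NRF2 targets with an entry 11 did. HMOX1, SLC7A11 and AKR1B10 have no entry. The stretches below are shown because they let a member that rose, a member that did not pass the test and the target with the largest rise outside the aldo-keto reductases be read side by side. Each is printed on the strand of the gene and capitals mark the match, which in GCLM and GPX2 reads as the core on the opposite strand.
GCLM, chr1:93909436-93909484, minus strand: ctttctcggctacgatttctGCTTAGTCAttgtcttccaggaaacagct
TXNRD1, chr12:104215660-104215708, plus strand: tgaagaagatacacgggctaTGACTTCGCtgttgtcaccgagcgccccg
GPX2, chr14:64942839-64942887, minus strand: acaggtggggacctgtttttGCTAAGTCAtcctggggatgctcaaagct
The match begins 34 bases before the start of GCLM, 99 before that of TXNRD1 and 122 before that of GPX2. These are matches of letters and not mapped binding sites. The windows of NFE2L2, KEAP1, NQO1, GCLC and SRXN1 do not hold these letters, nor do those of AKR1C1, AKR1C2 and AKR1C3, whereas elements farther away were not searched.

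In Lamin A/C Kd, 5 of the 9 genes rose, none fell and 4 did not pass the test. Over all genes tested 3.15% rose and 5.79% fell. The 5 were NQO1, SLC7A11, GCLC, GCLM and SRXN1, with rises between 0.57 and 1.21. All 3 Lamin A/C Kd arrays lay above all 3 controls for these 5 and for HMOX1, which makes 6 of 9, against 15.6% of all genes. The median change of the 9 was 0.57, and that of all genes was -0.04. NQO1 was the member that also reached a 2-fold change with an unadjusted p under 0.05, which 0.92% of all genes did in this direction and 1.29% in the other. No member had all Lamin A/C Kd arrays below all controls, as 25.2% of all genes did.

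**Figure D1:**
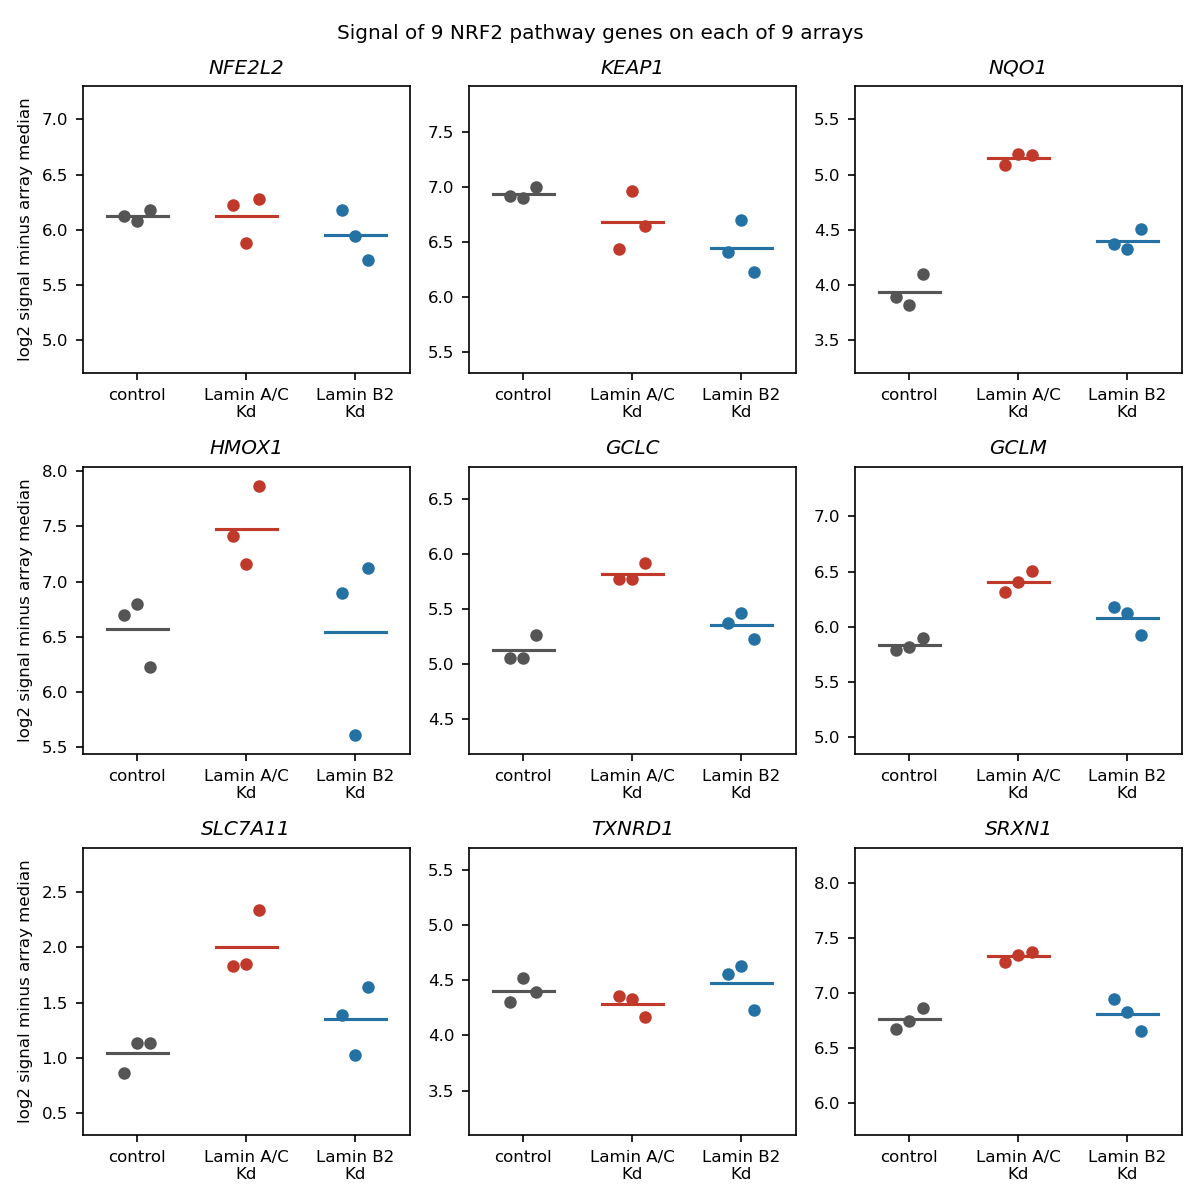
Signal of the brightest probe of each gene on every array, as log2 minus the array median, with 3 points per group (replicates 1 to 3 from left to right) and a line at the group mean. All panels span the same range of log2 units. NQO1, GCLC, GCLM, SLC7A11, SRXN1 and HMOX1 have every Lamin A/C Kd point above every control point, and NFE2L2, KEAP1 and TXNRD1 do not.

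Neither regulator passed the test in either knockdown. NFE2L2 read 6.12, 6.08 and 6.18 in controls, 6.22, 5.88 and 6.28 in Lamin A/C Kd and 6.18, 5.94 and 5.73 in Lamin B2 Kd. The 3 groups overlapped. The change was 0.00 in Lamin A/C Kd (95% interval -0.34 to 0.35, adjusted p = 0.994) and -0.18 in Lamin B2 Kd (-0.52 to 0.17, adjusted p = 0.483). A second, dimmer probe of NFE2L2 differed by 0.08 and 0.14 (adjusted p = 0.879 and 0.675). The intervals still allow a change of up to 0.35 either way in Lamin A/C Kd.

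KEAP1, the adaptor that marks NRF2 for degradation, read 6.91, 6.90 and 7.00 in controls. It read 6.44, 6.97 and 6.64 in Lamin A/C Kd and 6.41, 6.70 and 6.23 in Lamin B2 Kd. One Lamin A/C Kd array lay among the controls, and all Lamin B2 Kd arrays lay below them, as did those of 27.2% of all genes in that comparison. The change was -0.25 in Lamin A/C Kd (SE 0.17, adjusted p = 0.407) and -0.49 in Lamin B2 Kd (SE 0.17, adjusted p = 0.129), and neither passed the test.

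NQO1, a quinone reductase that is among the most used readouts of NRF2, had the largest change of the 9 genes. Its values were 3.89, 3.82 and 4.10 in controls, 5.09, 5.19 and 5.18 in Lamin A/C Kd and 4.37, 4.33 and 4.51 in Lamin B2 Kd. The 3 groups did not overlap, with Lamin B2 Kd in between. The rise in Lamin A/C Kd was 1.21 (SE 0.12, adjusted p = 0.000987), or 2.32-fold. It ranged from 1.09 to 1.31 and passed the test under all 20 alternative ways of processing. In Lamin B2 Kd the difference was 0.46 (SE 0.12, adjusted p = 0.0625).

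HMOX1, the enzyme that degrades heme, was the most variable member. Controls read 6.70, 6.80 and 6.23, and Lamin A/C Kd read 7.42, 7.16 and 7.86. The groups did not overlap, but the difference of 0.90 (SE 0.37) missed the threshold (adjusted p = 0.172). Lamin B2 Kd read 6.90, 5.61 and 7.12, a spread wider than that of either other group, with a mean difference from control of -0.03 (adjusted p = 0.964). Replicate 2 of Lamin B2 Kd sets that spread, which the fit shares among the groups. Without that array HMOX1 passed the test in Lamin A/C Kd, with the same difference of 0.90 (adjusted p = 0.0367), and the difference in Lamin B2 Kd was 0.44 (adjusted p = 0.254).

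The 3 members that serve glutathione synthesis, GCLC, GCLM and SLC7A11, each rose in Lamin A/C Kd. GCLC, the catalytic subunit of glutamate-cysteine ligase, read 5.06, 5.06 and 5.27 in controls, 5.77, 5.77 and 5.92 in Lamin A/C Kd and 5.38, 5.47 and 5.23 in Lamin B2 Kd. Every Lamin A/C Kd array was above every array of the other groups. The rise in Lamin A/C Kd was 0.69 (SE 0.12, adjusted p = 0.00992), or 1.61-fold, and a second probe rose by 0.59 (adjusted p = 0.0170). In Lamin B2 Kd the difference was 0.23 (adjusted p = 0.275).

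GCLM, the modifier subunit of the same ligase and 1 of the members with the core motif, read 5.79, 5.82 and 5.90 in controls and 6.32, 6.41 and 6.50 in Lamin A/C Kd. Lamin B2 Kd read 6.18, 6.13 and 5.93, above the controls but below Lamin A/C Kd on every array. The rise in Lamin A/C Kd was 0.57 (SE 0.12, adjusted p = 0.0171). A second probe differed by 0.39 and missed the threshold (adjusted p = 0.0602). The difference in Lamin B2 Kd was 0.24 (adjusted p = 0.240).

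SLC7A11, the cystine transporter that supplies cysteine for glutathione, read 0.87, 1.14 and 1.13 in controls and 1.83, 1.85 and 2.33 in Lamin A/C Kd. Lamin B2 Kd read 1.39, 1.03 and 1.64, overlapping with the controls. The rise in Lamin A/C Kd was 0.96 (SE 0.20, adjusted p = 0.0178), or 1.95-fold. A second probe rose by 0.46 (adjusted p = 0.0403), and the remaining probe was not well above background on any array and was not tested. The difference in Lamin B2 Kd was 0.31 (adjusted p = 0.354).

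Of the 2 members of the thioredoxin system, 1 rose in Lamin A/C Kd. SRXN1, sulfiredoxin, which restores oxidized peroxiredoxins, read 6.68, 6.74 and 6.86 in controls, 7.29, 7.34 and 7.37 in Lamin A/C Kd and 6.94, 6.83 and 6.66 in Lamin B2 Kd. It rose by 0.57 in Lamin A/C Kd (SE 0.12, adjusted p = 0.0180), and the difference was 0.05 in Lamin B2 Kd (adjusted p = 0.801). TXNRD1, thioredoxin reductase, read 4.30, 4.52 and 4.39 in controls, 4.35, 4.33 and 4.17 in Lamin A/C Kd and 4.55, 4.63 and 4.23 in Lamin B2 Kd. The promoter window of TXNRD1 holds the core motif, and its values overlapped among all groups. The change was -0.12 in Lamin A/C Kd (95% interval -0.43 to 0.19, adjusted p = 0.667) and 0.07 in Lamin B2 Kd (-0.24 to 0.38, adjusted p = 0.766).

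**Figure D2:**
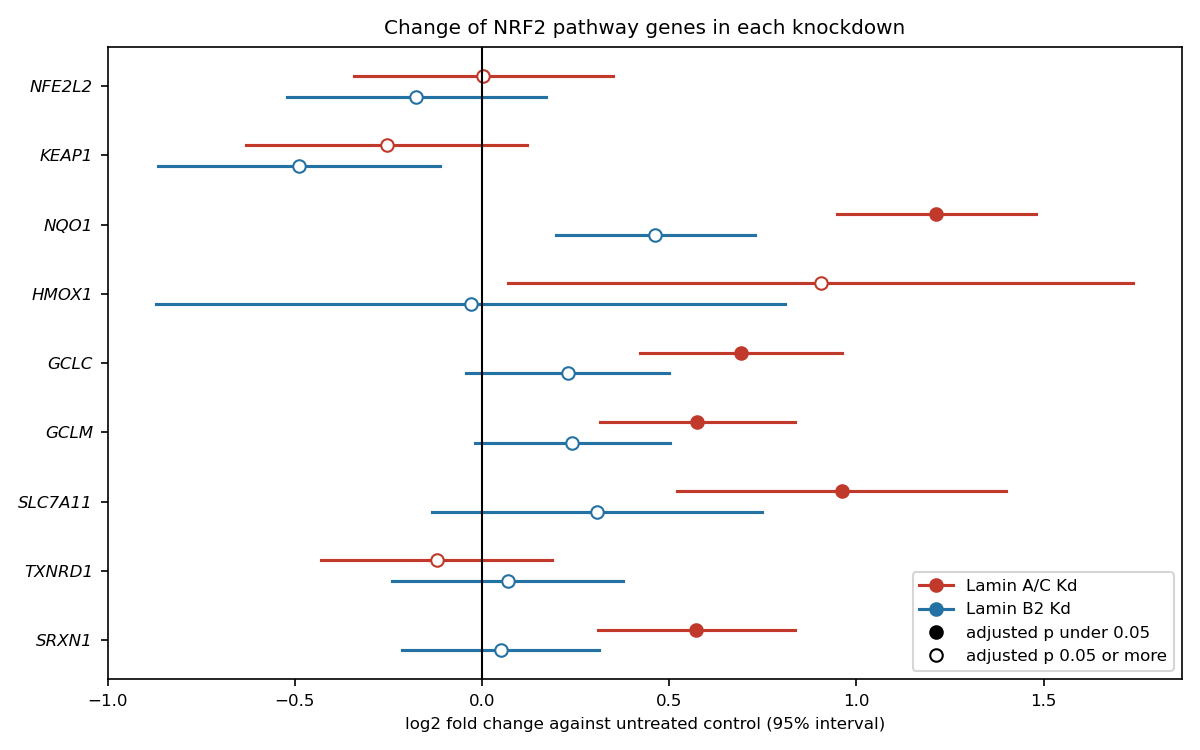
Log2 fold change of the brightest probe of each gene in each knockdown against the same 3 control arrays, with 95% intervals (filled points, adjusted p under 0.05). Filled points are those of NQO1, GCLC, GCLM, SLC7A11 and SRXN1 in Lamin A/C Kd, from 0.57 to 1.21, and no gene has a filled point in Lamin B2 Kd.

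The rises other than that of NQO1 lay near the threshold. Without control replicate 1 or control replicate 2 only 1 member passed, NQO1. Omitting replicate 3 of the controls left 2, as did omitting replicate 3 of Lamin A/C Kd, and omitting its replicate 2 left 3. Fewer of all genes rose in these fits as well, 0.955%, 1.04% and 1.14% without control replicates 1, 2 and 3 in place of 3.15%. Without Lamin A/C Kd replicates 2 and 3 the shares were 1.18% and 1.36%. The directions of these 5 rises were the same under all 20 alternatives, with lowest values of 0.62 for GCLC, 0.46 for GCLM, 0.68 for SLC7A11 and 0.50 for SRXN1.

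**Figure D3:**
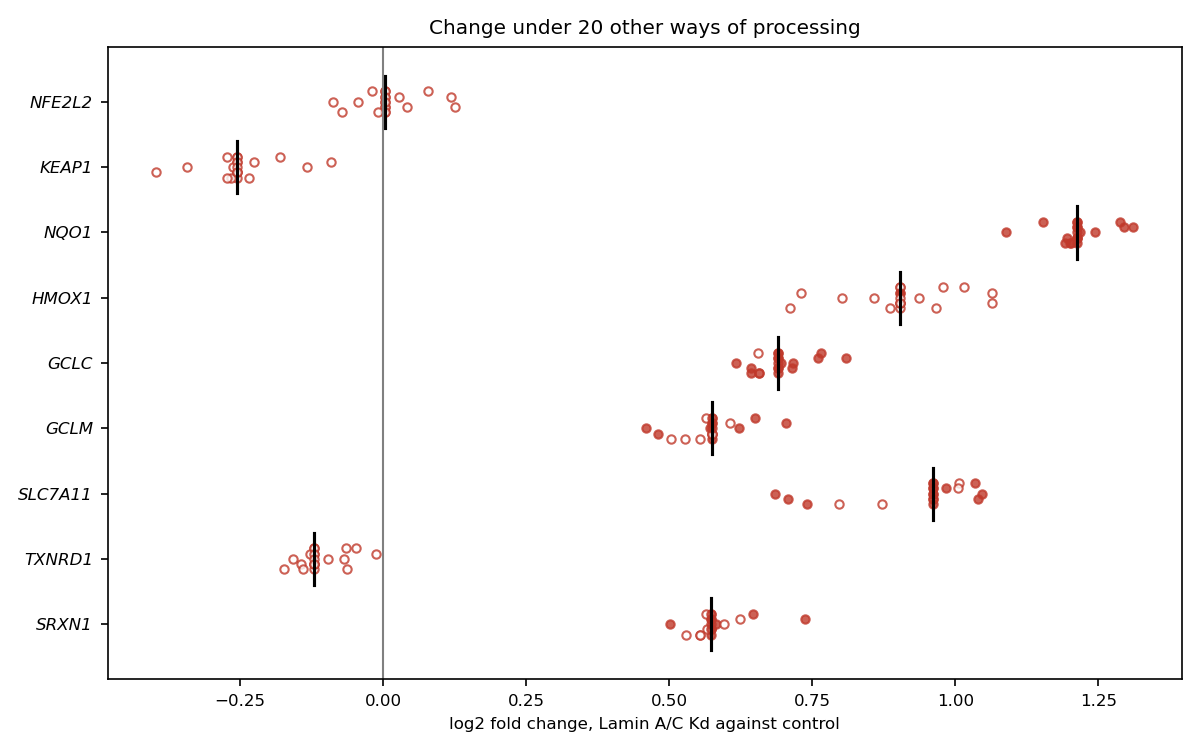
Log2 fold change of each gene in Lamin A/C Kd against control under 20 other ways of processing, among them other normalizations, filters and fits and the omission of each array (filled points, adjusted p under 0.05; black line, value given in the text). Points of NQO1 are all filled and lie between 1.09 and 1.31, whereas those of GCLM, SRXN1 and SLC7A11 keep their sign but are not filled in 7, 8 and 5 of the 20.

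In Lamin B2 Kd, 0 of the 9 genes rose or fell by limma, while over all genes 0.466% rose and 3.92% fell. KEAP1 and NQO1 had an unadjusted p under 0.05 (0.0165 and 0.00340). NQO1 and GCLM lay above all controls, against 5.62% of all genes. The median change of the 9 was 0.07 and that of all genes -0.14. This comparison depended on the scaling. A shift by the 75th percentile in place of the median moved the median of all genes to 0.06, and with it NQO1, GCLC and GCLM rose, by 0.66, 0.42 and 0.44 (adjusted p = 0.0269, 0.0285 and 0.0173). Quantile normalization, with the median of all genes at 0.00, gave rises of 0.68, 0.45 and 0.48 for the same 3 genes. With these scalings 1.85% and 1.22% of all genes rose. Without Lamin B2 Kd replicate 3, 0 of the 9 passed, where 0.705% of all genes rose and 4% fell. No member changed 2-fold with an unadjusted p under 0.05 in this knockdown, as 0.823% of all genes did upward and 1.21% downward.

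The knockdowns were compared directly. NQO1 was higher in Lamin A/C Kd than in Lamin B2 Kd by 0.75 (SE 0.12, adjusted p = 0.00390), SRXN1 by 0.52 (SE 0.12, adjusted p = 0.0171) and GCLC by 0.46 (SE 0.12, adjusted p = 0.0306). These were 3 of 9 members, where 11.2% of all genes were higher in Lamin A/C Kd and 4.53% lower. No member differed 2-fold with an unadjusted p under 0.05, as 2.79% of all genes did upward and 1.41% downward. SLC7A11 differed by 0.65 and GCLM by 0.33 (adjusted p = 0.0519 and 0.0853), HMOX1 by 0.93 (adjusted p = 0.125), and NFE2L2, KEAP1 and TXNRD1 by 0.18, 0.23 and -0.19 (adjusted p = 0.471, 0.386 and 0.390). The arrays of 6 of the 9 members were all above those of Lamin B2 Kd, against 21.9% of all genes, and 0 were all below, against 10.4%.

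The aldo-keto reductases reduce carbonyl compounds with NADPH. AKR1B10 read 1.35, 1.47 and 1.90 in controls, 3.50, 3.67 and 3.72 in Lamin A/C Kd and 1.96, 2.22 and 1.99 in Lamin B2 Kd. It rose by 2.06 in Lamin A/C Kd (SE 0.16, adjusted p = 0.000440), or 4.16-fold, and a second probe rose by 1.92 (adjusted p = 0.000527). The difference in Lamin B2 Kd was 0.48 (adjusted p = 0.123). AKR1C3 read 2.90, 3.15 and 3.55 in controls, 5.27, 5.54 and 5.34 in Lamin A/C Kd and 3.37, 3.61 and 3.15 in Lamin B2 Kd. It rose by 2.18 in Lamin A/C Kd (SE 0.19, adjusted p = 0.000589), or 4.55-fold, and the difference in Lamin B2 Kd was 0.17 (adjusted p = 0.569). AKR1B10 and AKR1C3 were also higher in Lamin A/C Kd than in Lamin B2 Kd, by 1.57 and 2.01 (adjusted p = 0.000632 and 0.000424).

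The probes of AKR1C1 disagreed. Its brightest probe read -1.27, 1.94 and -0.97 in controls and 1.37, 1.72 and 1.62 in Lamin A/C Kd. Control replicate 2 lay above all Lamin A/C Kd arrays, and the difference of 1.67 missed the threshold (adjusted p = 0.176). Without that array it was 2.69 (adjusted p = 0.00278). A second probe read -0.85, -0.76 and -0.26 in controls and 1.79, 2.16 and 1.91 in Lamin A/C Kd. Here control replicate 2 was no exception, and the probe rose by 2.58 (SE 0.17, adjusted p = 0.000225). Of the dimmer probes, 1 rose by 0.75 (adjusted p = 0.0366) and 1 was not tested. Set against Lamin B2 Kd, the brightest probe was 1.99 higher and missed the threshold (adjusted p = 0.0856), while the second and the dimmer tested probe were higher by 2.29 and 1.04 (adjusted p = 0.000234 and 0.00631). The AKR1C genes are close copies of each other, so the share of each in these signals is uncertain. No probe carries the name AKR1C2.

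Other NRF2 targets were counted from lists of glutathione, thioredoxin, NADPH, heme and iron, and detoxification genes. Of 56 genes listed, 49 were tested. Of these, 13 rose and 0 fell upon Lamin A/C depletion, with a median change of 0.26, where 3.15% of all genes rose and 5.79% fell. Leaving out AKR1B10 and the AKR1C1, AKR1C2 and AKR1C3 genes, 11 of 46 rose, 0 fell and 37 had a change above 0, with a median of 0.20. The share of all genes with a change above 0 was not counted, and the median change of all genes was -0.04. The 46 still hold the aldo-keto reductase AKR1B1, which rose by 0.56. For 26 of the 46 all Lamin A/C Kd arrays lay above all controls, as for 15.6% of all genes. Upon Lamin B2 depletion 0 of 49 rose and 5 fell, with a median of -0.13 beside -0.14 for all genes, of which 0.466% rose and 3.92% fell. The Lamin B2 Kd median was above 0 with the 75th percentile or quantile normalization (0.07 and 0.04), where those of all genes were 0.06 and 0.00. At an unadjusted p under 0.05, 4 of the 49 were higher and 12 lower upon Lamin B2 depletion, and 19 and 2 in Lamin A/C Kd. The share of all genes at an unadjusted p was not counted. At an adjusted p under 0.05 the number that fell was 3 without Lamin B2 Kd replicate 3, and 0 without any 1 control. Of all genes, 4% fell without Lamin B2 Kd replicate 3 and 0.139% to 0.436% without a control. Set directly against Lamin B2 Kd, 18 of 49 were higher upon Lamin A/C depletion and 0 were lower, where 11.2% of all genes were higher and 4.53% lower. Across all the lists, 11 genes rose or fell upon Lamin B2 depletion, MAFF upward and the rest downward, where 0.466% of all genes rose and 3.92% fell. The genes tested were not counted over these lists together, so the 11 cannot be set against those shares. These lists also hold NRF2 partners, other antioxidant enzymes, ATF4 targets and cell type markers. Without replicate 3 of Lamin B2 Kd, 9 of the 11 still passed, where 0.705% of all genes rose and 4% fell. The exceptions were ABCC3 and IDH1, which then missed the threshold (limma, adjusted p = 0.0508 and 0.0559).

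**Figure D4:**
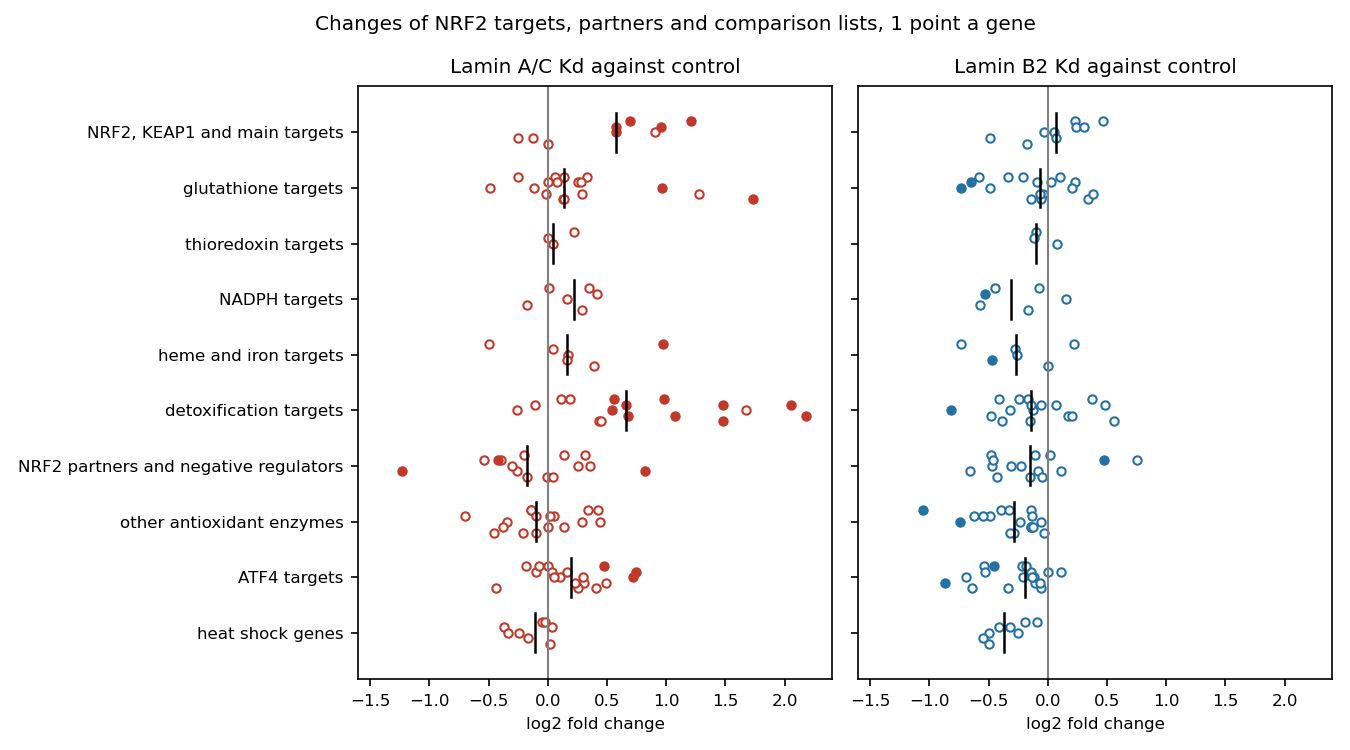
Log2 fold change of each tested gene of 10 lists in Lamin A/C Kd (left) and Lamin B2 Kd (right) against the same controls, 1 point per gene by its brightest probe (filled, adjusted p under 0.05), with a black line at the median of the list. The detoxification targets, aldo-keto reductases included, have 10 filled points above 0 on the left and 1 below 0 on the right. The thioredoxin and NADPH targets and the heat shock genes have no filled point on the left.

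The detoxification list held most of the rises in Lamin A/C Kd, with 10 of 17 genes tested, where 3.15% of all genes rose, and a median of 0.66. The aldo-keto reductases AKR1C3, AKR1B10 and AKR1B1 are among these rises, and AKR1C1 is among the genes tested. Since the rise of aldo-keto reductases was part of the question, these genes are no separate answer to it. Beside AKR1C3 and AKR1B10 the largest were OSGIN1, an oxidative stress-induced growth inhibitor, and TRIM16, a ubiquitin ligase of the TRIM family. OSGIN1 read 0.90, 1.24 and 1.19 in controls and 2.25, 2.88 and 2.64 in Lamin A/C Kd, and rose by 1.48 (SE 0.18, adjusted p = 0.00264). Its values in Lamin B2 Kd were 1.04, 1.23 and 0.90, overlapping with the controls. TRIM16 read 4.63, 3.90 and 3.98 in controls and 5.36, 5.85 and 5.74 in Lamin A/C Kd, and rose by 1.48 (SE 0.23, adjusted p = 0.00746). The others that rose were CYP4F11 (1.07), UGDH (0.98), PTGR1 (0.68, named LTB4DH on the array), UGT1A6 (0.66), AKR1B1 (0.56) and PIR (0.54). UGT1A6 shares exons with the other UGT1A genes, so its signal may be theirs in part. PIR, an iron-binding nuclear protein, fell by 0.82 upon Lamin B2 depletion (SE 0.12, adjusted p = 0.0129).

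Of 17 glutathione targets 2 rose in Lamin A/C Kd, where 3.15% of all genes rose, with a median of 0.13. GPX2, a glutathione peroxidase of the gut epithelium, read 0.19, 0.37 and 0.41 in controls, 1.82, 2.28 and 2.07 in Lamin A/C Kd and 0.53, 0.70 and 0.76 in Lamin B2 Kd. It rose by 1.73 in Lamin A/C Kd (SE 0.14, adjusted p = 0.000533), or 3.32-fold. ABCC3, an exporter of conjugates, read 3.16, 2.63 and 2.87 in controls, 3.82, 3.80 and 3.93 in Lamin A/C Kd and 2.08, 2.29 and 2.09 in Lamin B2 Kd. It rose by 0.96 in Lamin A/C Kd (limma, adjusted p = 0.00693) and fell by 0.74 in Lamin B2 Kd (limma, adjusted p = 0.0348). GSS, the second enzyme of glutathione synthesis, fell by 0.65 in Lamin B2 Kd (limma, adjusted p = 0.0346).

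Of 6 heme and iron targets FTL, the ferritin light chain, rose in Lamin A/C Kd by 0.98 (SE 0.13, adjusted p = 0.00399), from 7.63, 7.81 and 7.94 in controls to 8.67, 8.72 and 8.91. Lamin B2 Kd read 8.15, 7.93 and 7.96. FECH, which inserts iron to form heme, fell by 0.47 in Lamin B2 Kd (limma, adjusted p = 0.0442). None of the 3 thioredoxin targets (TXN, PRDX1 and PRDX6) and none of the 6 NADPH targets rose or fell in Lamin A/C Kd, with medians of 0.05 and 0.23 (limma, with 0 and 1 higher and 0 lower at an unadjusted p under 0.05). The NADPH gene IDH1 fell by 0.53 upon Lamin B2 depletion (adjusted p = 0.0470).

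Among 15 partners and negative regulators of NRF2, 1 rose and 2 fell in Lamin A/C Kd, where 3.15% of all genes rose and 5.79% fell. SQSTM1, the autophagy receptor p62, which binds KEAP1 and is itself an NRF2 target, read 7.64, 7.70 and 7.88 in controls, 8.40, 8.65 and 8.65 in Lamin A/C Kd and 7.94, 7.94 and 7.67 in Lamin B2 Kd. It rose by 0.82 in Lamin A/C Kd (SE 0.13, adjusted p = 0.00796). MAFK, a small MAF protein that pairs with NRF2, read 4.60, 4.61 and 4.60 in controls, 3.45, 3.45 and 3.21 in Lamin A/C Kd and 4.06, 4.46 and 3.32 in Lamin B2 Kd. It fell by 1.23 in Lamin A/C Kd (SE 0.25, adjusted p = 0.0169). MAFF, another small MAF protein, fell by 0.42 in Lamin A/C Kd (limma, adjusted p = 0.0427) and rose by 0.47 in Lamin B2 Kd (limma, adjusted p = 0.0447). The repressor BACH1 and the ligase scaffold CUL3 differed by 0.32 and -0.26 (adjusted p = 0.188 and 0.448).

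Lists outside the NRF2 targets were counted alongside. Of 17 other antioxidant enzymes, such as superoxide dismutases and catalase, 0 rose or fell in Lamin A/C Kd by limma, with a median of -0.10 (4 higher and 4 lower at an unadjusted p under 0.05). In Lamin B2 Kd TXNRD2 and MSRB2 fell, by 1.05 and 0.75 (limma, adjusted p = 0.00684 and 0.0390), where 3.92% of all genes fell. Of 8 heat shock genes 0 rose or fell in either knockdown by limma (medians -0.11 and -0.37). At an unadjusted p under 0.05, 2 and 4 of the heat shock genes were lower. ATF4, the factor of the amino acid stress response, also activates SLC7A11. Of 18 ATF4 targets 3 rose in Lamin A/C Kd, which were SESN2 (0.74), DDIT4 (0.72) and CTH (0.48), with adjusted p values of 0.0133, 0.0438 and 0.0251, and the median was 0.20. That is 3 of 18 where 3.15% of all genes rose, and at an unadjusted p under 0.05 there were 5 higher and 1 lower. Upon Lamin B2 depletion PCK2 and CTH fell, by 0.87 and 0.45 (adjusted p = 0.0244 and 0.0480), where 3.92% of all genes fell at an adjusted p under 0.05. Of the ATF4 targets 0 were higher and 7 lower at an unadjusted p under 0.05. The share of all genes at an unadjusted p was not counted, so no list can be judged by its unadjusted number.

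The genes whose values followed a member most closely were found by the root mean square difference of mean-centered log2 values over the 9 arrays, among 20214 genes above background on all of them. For NQO1 these were UGDH (0.12), ZNF527 (0.14) and FTL (0.16), where the middle gene was at 0.58. UGDH, which makes the sugar donor of glucuronidation, read 4.45, 4.22 and 4.42 in controls, 5.27, 5.31 and 5.46 in Lamin A/C Kd and 4.75, 4.69 and 4.79 in Lamin B2 Kd. Since UGDH was picked for its closeness to NQO1 on these arrays, a like order of groups comes from the selection. The nearest genes to SLC7A11 were ITGB8 (0.13), RAB3GAP1 (0.16) and FTL (0.17). For HMOX1 they lay farther away, at 0.26 (COL5A2), 0.27 (HsapiAF075110) and 0.31 (LGICZ1). The points share the arrays and their scaling, and the differences are given as a description.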

How the data were processed

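RNA of 9 DLD1 cultures, described as independent biological replicates, was hybridized to single-color Agilent arrays. The authors deposited the output of Feature Extraction 10.5 (per the submitters' processing notes, while the file headers name a later release), in which each spot has an intensity with its background already subtracted, and a series table of log2 values shifted by the 50th percentile. From the intensities, log2 minus the 50th percentile of the array was averaged over the non-outlier spots of a probe. Saturation was reported for 0 spots. A probe was tested where the 3 arrays of any 1 of the compared groups were all well above background, with limma 3.58.1 (R 4.3.3) over all 9 arrays, with Benjamini-Hochberg adjustment. The brightest probe stood for a gene. Both comparisons with controls use the same 3 control arrays. Alternatives were the 75th percentile, quantile normalization, normexp with an offset of 50, the authors' table, other filters and fits, and each array left out.

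The members and lists were chosen with earlier results of these data known. By rule, the members and 4 aldo-keto reductases are always named, with up to 4 genes of each list that changed most among those that passed the test, and any other gene named was chosen after its values were seen. The 3 arrays per group limit the precision. In simulated arrays with the spread of these (30489 probes, Lamin A/C Kd against control), 200 probes were changed. On the log2 scale 35% of changes of 0.75 and 90% of changes of 1.5 passed the test, with 5 unchanged probes. In the measured arrays 3.15% of all genes rose and 5.79% fell in this comparison, a larger share than was changed in the simulation. Since the Benjamini-Hochberg adjustment depends on that share, the 35% and 90% do not give the recovery in these data.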

Additional observations from a re-analysis of the deposited data

Results flagged for a closer look

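Genes whose response differed between the knockdowns were looked at again, which means a tested difference of Lamin A/C Kd minus Lamin B2 Kd on the log2 scale. They were NQO1 (0.75, adjusted p = 0.00390), SRXN1 (0.52, adjusted p = 0.0171) and GCLC (0.46, adjusted p = 0.0306) among the members, and AKR1C3 (2.01, adjusted p = 0.000424) and AKR1B10 (1.57, adjusted p = 0.000632) among the aldo-keto reductases. All were higher in Lamin A/C Kd on 3 of 3 arrays than on any Lamin B2 Kd array, as were 21.9% of all genes. These genes were picked by the test on the same arrays, so their separation is no further evidence. Under 20 alternatives the differences of NQO1, AKR1C3 and AKR1B10 passed the test each time, that of SRXN1 missed it under 4 and that of GCLC under 10.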

How the results depend on the processing

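The rises of NQO1, AKR1C3 and AKR1B10 in Lamin A/C Kd passed the test under all 20 alternatives, and the count of 5 members did not hold. It was 3 with a replicate block and 3 with the authors' table, and 1 to 6 when each array was left out. Of all genes, 1.63% rose with the replicate block in place of 3.15%, and 0.955% to 7.41% without each array. Same-numbered arrays did not deviate together (r from -0.09 to 0.15 over 9 pairs), and r was -0.12 to 0.15 over 18 pairs of unlike number. With values centered within groups of 3 arrays, this cannot show that no pairing exists. In the authors' table the set numbers of the Lamin B2 columns do not match the arrays their values follow, so those columns were used by group only. With the replicate block the number of other targets falling in Lamin B2 Kd was 0, where 0.71% of all genes fell. The number of members at 2-fold was 2 with the 75th percentile, 2 with quantile normalization and 1 to 3 without each array. The share of all genes at 2-fold was not counted under any alternative, here or between the knockdowns below. In Lamin B2 Kd the count of members rising or falling was 3 with the 75th percentile, 3 with quantile normalization (all rising, where 1.85% and 1.22% of all genes rose in place of 0.466%), 2 with normexp (NQO1 up, KEAP1 down), 1 with array weights and 0 whichever array was left out. With normexp 0.628% of all genes rose and 9.81% fell, and with array weights 1.17% and 6.62%. Without each array 0.0225% to 1.02% of all genes rose and 0.139% to 5.46% fell. Between the knockdowns the count of members rising or falling was 1 with only the 2 groups compared, 5 with array weights and 1 to 4 without each array, and 1 member was at 2-fold with array weights or with the slide as a random block (0 to 1 without each array). Of all genes, 5.88% were higher in Lamin A/C Kd and 2.01% lower with only the 2 groups compared. With array weights these shares were 11.4% and 7.69%, and without each array 5.91% to 11% and 2.27% to 8.16%. Other targets rising in Lamin A/C Kd numbered 21 with the 75th percentile, quantile normalization or array weights, where 7.45%, 7.32% and 8.55% of all genes rose in place of 3.15%, and 9 to 18 without each array, where 0.955% to 7.41% did. Those falling in Lamin B2 Kd numbered 2 with the 75th percentile or quantile normalization, 9 with normexp, 1 with no filter, 0 with only the 2 groups compared and 0 to 4 without each array. The shares of all genes that fell were, in that order, 3.02%, 3.34%, 9.81%, 0.554% and 0.0407%, and 0.139% to 5.46% without each array. These counts of other targets, and the single genes in Lamin B2 Kd without its replicate 3, were repeated by choice after the data were seen. The sign turned for NFE2L2 in Lamin A/C Kd, which was -0.087 with normexp, -0.01 with the authors' table and -0.071 to 0.13 without each array. In Lamin B2 Kd NFE2L2 was 0.020 with the 75th percentile and 0.042 with quantile normalization, and HMOX1 was 0.16 and 0.19. Without each array in turn the value in Lamin B2 Kd was -0.32 to 0.44 for HMOX1, -0.010 to 0.19 for TXNRD1, -0.016 to 0.13 for SRXN1 and -0.91 to 0.70 for AKR1C1. None of these values passed the test, and the cause was not tested.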
